A study of Arabidopsis thaliana with 29 samples.

Results

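Mitotic cyclins and B-type cyclin-dependent kinases were followed through Arabidopsis thaliana embryo development as a set of 10 genes listed by name. The set holds cyclin CYCA1;1 (AT1G44110), the B1 cyclins CYCB1;1 (AT4G37490), CYCB1;2 (AT5G06150), CYCB1;3 (AT3G11520) and CYCB1;4 (AT2G26760), the B2 cyclins CYCB2;1 (AT2G17620) and CYCB2;2 (AT4G35620), and the kinases CDKB1;1 (AT3G54180), CDKB2;1 (AT1G76540) and CDKB2;2 (AT1G20930). All 10 were among the 33341 genes with total read counts. Exonic parental values were given for 7 of them, among 12448 genes, and were missing for CYCB1;2, CYCB1;3 and CYCB2;1. Intronic parental values were not used here.

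Cyclins are the regulatory partners of cyclin-dependent kinases, and the kinase is active only while a cyclin is bound. In plants, mitotic cyclins of the A and B types rise late in the cell cycle and are later destroyed through the anaphase-promoting complex. They act with the plant-specific B-type kinases at the entry into and passage through mitosis. Many of these genes are switched on in G2 and M phase through MSA elements (M-specific activators), short promoter motifs bound by MYB3R transcription factors. Their transcripts are therefore widely used as markers of dividing cells, and in embryos the division rate falls when growth gives way to seed filling and maturation.

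The embryos were hybrids between Col-0 and Tsu-1, a pair of natural accessions, crossed in both directions and written with the mother first, so that all embryo groups share the same pair of parents. They came from 7 stages (zygote and octant, globular and heart, torpedo and bent, and mature), with 27 libraries, and 2 further libraries came from unfertilized Col-0 ovules. Each of the 15 groups had 2 libraries that the labels call biological replicates, except Col-0 × Tsu-1 zygotes with 1 library joined from technical libraries. Embryos were isolated by hand and their RNA was amplified before library construction, and neither the number of embryos per library nor plant ages were stated. Totals lay between 689780 and 60410492 reads per library, the smallest being bent Tsu-1 × Col-0 replicate 2, where 1 read is worth more than 1 CPM. Levels below are CPM, read counts relative to the library total, after TMM scaling, given in the order Col-0 × Tsu-1 replicates, then Tsu-1 × Col-0 replicates. Marker genes of the surrounding tissue moved with stage: the summed CPM of 9 seed coat genes was 50.7 to 99.9 in ovules, 1429 to 2967 in zygotes, 980 to 1380 at octant, 120 to 262 at globular and at most 92.7 from heart on. For 10 endosperm genes the sum was 34.6 to 46.4 in zygotes, 44.5 to 76.9 at octant and at most 49.0 later. All 12 embryo patterning genes had reads at every stage and in ovules. Their sum was 357 to 577 CPM in ovules, 544 to 1562 in zygotes and 1053 to 1898 at octant. It was 236 to 434 CPM at torpedo, 62.8 to 146 at bent and 38.3 to 79.8 at mature. All 9 seed coat genes had reads from zygote to torpedo, and their part in the zygote and octant results below was not tested.

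The stretches before the gene starts are shown because most members moved together with stage and because MSA elements are known from this gene class. Each window is the 250 bases before the RefSeq gene start in assembly TAIR10.1, printed 5′ to 3′ on the strand of the gene, and capitals mark the MSA core AACGG or its reverse complement CCGTT. The cyclins CYCA1;1 at chr1:16777353-16777602, CYCB1;1 at chr4:17624309-17624558, CYCB1;2 at chr5:1861704-1861953 and CYCB1;3 at chr3:3627274-3627523 lie on the minus strand. The cyclins CYCB2;2 at chr4:16901346-16901595 and CYCB1;4 at chr2:11400868-11401117 lie on the plus strand, and the last of these is shown as a window with no core.
CYCA1;1: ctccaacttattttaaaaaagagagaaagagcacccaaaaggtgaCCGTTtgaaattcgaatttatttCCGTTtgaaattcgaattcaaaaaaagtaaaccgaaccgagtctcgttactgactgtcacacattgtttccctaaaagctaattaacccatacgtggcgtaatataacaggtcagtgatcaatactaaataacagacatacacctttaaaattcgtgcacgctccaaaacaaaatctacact
CYCB1;1: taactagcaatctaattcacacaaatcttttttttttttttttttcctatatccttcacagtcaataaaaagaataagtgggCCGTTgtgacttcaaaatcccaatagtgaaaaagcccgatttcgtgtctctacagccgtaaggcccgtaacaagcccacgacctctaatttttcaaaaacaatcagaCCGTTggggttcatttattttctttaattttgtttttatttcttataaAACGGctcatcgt
CYCB1;2: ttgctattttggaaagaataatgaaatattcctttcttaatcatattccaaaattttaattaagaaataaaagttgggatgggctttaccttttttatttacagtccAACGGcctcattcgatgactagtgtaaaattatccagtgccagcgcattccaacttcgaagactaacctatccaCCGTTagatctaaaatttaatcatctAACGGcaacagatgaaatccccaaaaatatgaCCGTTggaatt
CYCB1;3: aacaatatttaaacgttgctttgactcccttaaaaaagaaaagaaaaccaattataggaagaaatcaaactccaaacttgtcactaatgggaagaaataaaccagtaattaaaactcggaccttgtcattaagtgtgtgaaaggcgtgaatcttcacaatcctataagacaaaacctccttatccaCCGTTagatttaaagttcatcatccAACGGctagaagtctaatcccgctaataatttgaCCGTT
CYCB2;2: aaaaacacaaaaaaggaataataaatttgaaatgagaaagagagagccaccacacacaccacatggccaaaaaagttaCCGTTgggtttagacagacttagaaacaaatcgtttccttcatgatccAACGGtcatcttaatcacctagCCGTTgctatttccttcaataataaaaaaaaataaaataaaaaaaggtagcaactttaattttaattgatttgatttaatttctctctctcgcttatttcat
CYCB1;4: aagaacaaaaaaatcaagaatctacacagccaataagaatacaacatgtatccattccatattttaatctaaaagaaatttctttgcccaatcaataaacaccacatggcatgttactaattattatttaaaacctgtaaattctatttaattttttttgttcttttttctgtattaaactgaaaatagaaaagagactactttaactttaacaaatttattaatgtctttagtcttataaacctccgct

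On either strand, the core was present in the windows of 7 of the 10 members and in 20.57% of 27443 windows of protein-coding genes. At least 2 cores were found for 6 members, against 3.622% of all windows, and at least 3 for 5 members, against 0.736%. The longer form CNAACGG, which overlaps the core by construction, was present in 6 members and in 4.504% of all windows. The E2F motif TTTCCCGC was present in 0 members and in 0.619% of all windows. The highest number of cores, 4, was in the window of CYCB1;2, all of them in the longer form and all within 143 bases of the gene start. The windows of CYCB1;4, CDKB1;1 and CDKB2;1 held no core, and for both of these kinases the window overlaps a neighbouring gene. These matches describe letters in a fixed window and were not tested for binding.

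**Figure D1:**
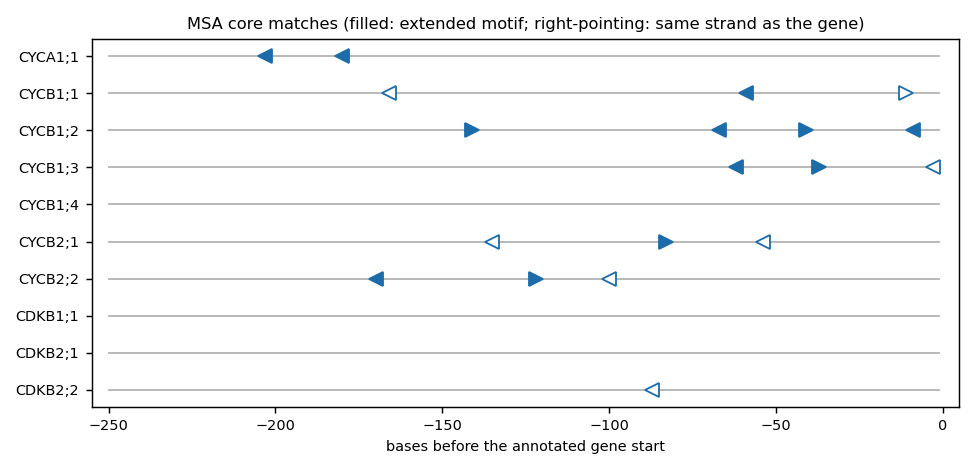
Positions of MSA core matches in the 250 bases before the annotated start of each member (x axis, bases before the start). Filled triangles are matches to the longer form and the direction of a triangle gives the strand; 7 members have at least 1 match and 3 have none.

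The summed level of the set was highest at heart and torpedo and lowest at mature. Over all 10 members it was 120 ± 15.1 CPM in zygotes (SD, n = 3) and 283 ± 2.93 at octant (n = 4, as for all later stages). Globular embryos were at 365 ± 28.3 CPM, heart embryos at 477 ± 85.7 and torpedo embryos at 458 ± 60.3, before the sum came down to 56.4 ± 9.37 at bent and 8.502 ± 6.36 at mature. Ovules, with 2 libraries, were at 271 ± 21.7 CPM. The lowest octant library (279 CPM) was above the highest zygote library (134 CPM), and the highest bent library (64.5 CPM) was below the lowest torpedo library (396 CPM). In bulk embryos, fewer dividing cells and less of these transcripts per dividing cell cannot be told apart.

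**Figure D2:**
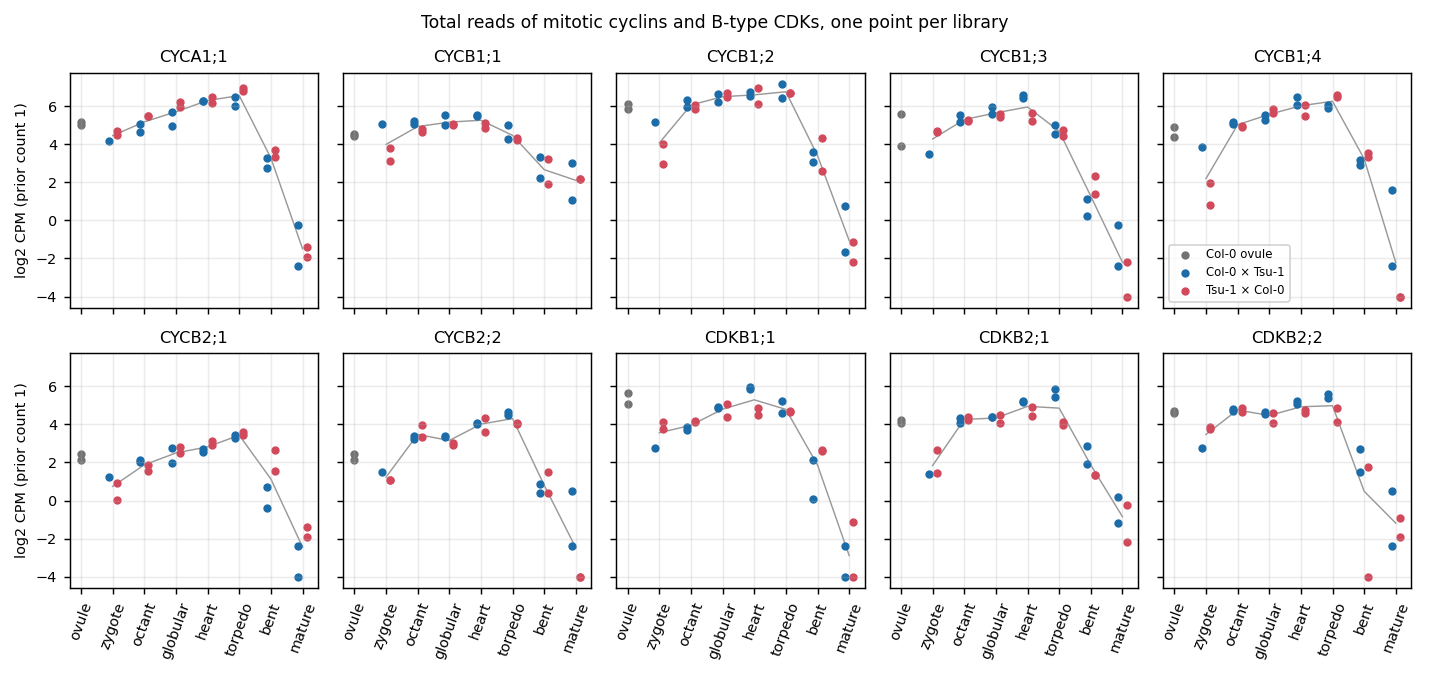
Level of each member in every library (y axis, log2 CPM with a prior count of 1) by stage (x axis). Grey points are ovules, blue points Col-0 × Tsu-1, red points Tsu-1 × Col-0, and the line joins stage means; every member is low in the mature libraries apart from the second panel, where the 4 mature libraries stay between 2.03 and 7.98 CPM.

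Each pair of consecutive stages was compared with edgeR's quasi-likelihood test with cross as a covariate, and p-values were adjusted by Benjamini-Hochberg over all genes tested at a threshold of 0.05. From zygote to octant 7 of the 10 members rose and 0 fell, with a median log2 fold change of 1.19 over the members and -0.01 over all 20623 genes tested. In that comparison 34.3% of all genes were called, 16.4% as higher. The number of members called was 4 without Tsu-1 × Col-0 zygote replicate 2, 3 when replicate 1 of Tsu-1 × Col-0 octants was left out and 4 when replicate 2 of that group was. From octant to globular 1 member rose and 0 fell, with 36.9% of genes called and 17% higher. From globular to heart 1 rose and 0 fell, with 16.9% of genes called and 6.49% higher. From heart to torpedo 0 rose and 2 fell, with 20.1% called and 10% lower. The count from octant to globular was 0 without octant Col-0 × Tsu-1 replicate 1, 3 without globular Col-0 × Tsu-1 replicate 1 and 2 without the second replicate of that group.

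All 10 members fell from torpedo to bent, with a median log2 fold change of -3.05 against -0.04 over all genes, where 44.4% of genes were called and 22.4% were lower. The 10 calls held under every scaling, filter and tool tried and without any 1 library. From bent to mature 9 of the 10 fell further, with a median of -3.41 against -0.02 over all genes, where 54.5% of genes were called and 29.2% were lower. The call of CYCB2;2 in that step (-2.63 ± 0.93, adjusted p = 0.0341) was lost without either Tsu-1 × Col-0 bent library, replicate 1 of mature Col-0 × Tsu-1 or either Tsu-1 × Col-0 mature library (adjusted p 0.0601 to 0.223). The call of CDKB2;2 (-2.77 ± 0.72, adjusted p = 0.00829) was lost without replicate 1 of bent Tsu-1 × Col-0 (adjusted p = 0.0543). Most members had only a few reads at mature, so folds into that stage rest on low counts.

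**Figure D3:**
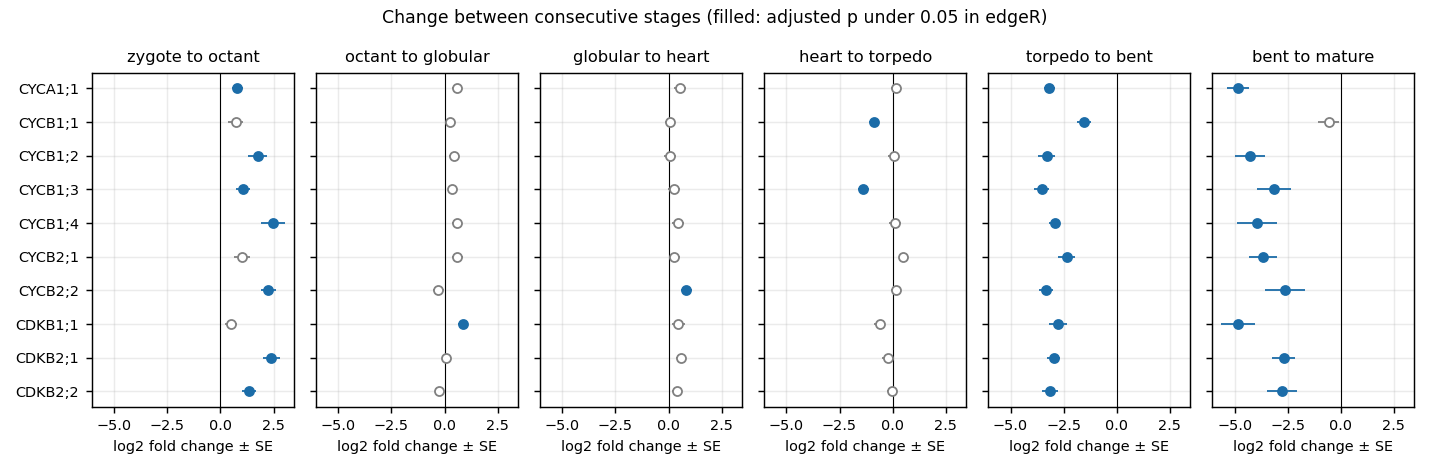
Log2 fold change from edgeR with its standard error (x axis) for each member (y axis) between consecutive stages. The standard error is the absolute log2 fold change divided by the square root of the F statistic. Filled points have an adjusted p under 0.05; 7 members are filled to the right of 0 in the first panel and 10 to the left of 0 from torpedo to bent.

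Per kilobase of exon, the B1 cyclin CYCB1;2 was highest at octant (36.6 ± 4.91 CPM per kb, SD, n = 4) and at torpedo (60.03 ± 13.2), and the B2 cyclin CYCB2;1 was lowest (2.19 ± 0.373 and 6.46 ± 0.615). At torpedo the order from the top went on with CYCA1;1 (52.9 ± 13.9), CYCB1;4 (42.6 ± 9.38), CDKB2;1 (24.6 ± 15.1), CDKB2;2 (24.2 ± 9.68), CDKB1;1 (20.3 ± 4.68), CYCB1;3 (15.6 ± 2.75), CYCB1;1 (13.8 ± 3.86) and CYCB2;2 (11.5 ± 2.41). In that order the ranges of each neighbouring pair overlapped, except for the last pair, the B2 cyclins. At octant the highest member and its neighbour CYCB1;3 (23.7 ± 2.65 CPM per kb) did not overlap.

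Among the members taken in turn, CYCA1;1, an A-type cyclin expressed around mitosis, had its highest stage mean at torpedo. Its CPM were 17.9, 22.5 and 25.8 in zygotes, 25.3, 33.3, 45.2 and 44.0 at octant, and 89.7, 64.0, 122 and 110 at torpedo, so that no torpedo library overlapped an octant library. At bent its CPM were 9.74, 6.73, 12.97 and 9.93, and at mature it had 1 to 3 reads per library. The rise from zygote to octant had a log2 fold change of 0.80 ± 0.25 (SE) and an adjusted p of 0.0417. It was lost with no filter on low counts (adjusted p = 0.0668), without Tsu-1 × Col-0 zygote replicate 1 (adjusted p = 0.0841) or without any of the 4 octant libraries (adjusted p 0.0697 to 0.138). The fall from torpedo to bent was -3.17 ± 0.26 (adjusted p = 1.5e-06).

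The exonic parental values of this cyclin rest on the most variant reads of the set, 16346 over all stages and crosses. In the authors' deposited table the maternal share at zygote was 44.1% with a Col-0 mother (762 reads, adjusted p = 0.688) and 55.4% with a Tsu-1 mother (677 reads, adjusted p = 0.611). At torpedo the authors' deposited table gave 47.1% (2092 reads) and 57.8% (2826 reads). From zygote to torpedo the share was under 50% with a Col-0 mother and over 50% with a Tsu-1 mother at each stage, so the Tsu-1 allele was the larger in both crosses, but it passed the threshold at no stage in the authors' deposited table.

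The B1 cyclins are the best known markers of G2 and M phase in plants, and CYCB1;1 is the usual reporter of dividing cells and is also known to be induced by DNA damage. Its CPM were 33.2, 8.66 and 13.7 in zygotes, 36.8, 32.9, 28.0 and 24.8 at octant, and 47.0, 44.4, 29.03 and 35.0 at heart. They were 32.0, 19.6, 18.8 and 19.9 at torpedo, 4.55, 9.82, 9.25 and 3.72 at bent and 2.03, 7.98, 4.40 and 4.43 at mature. Zygote and octant overlapped through the Col-0 × Tsu-1 zygote library, and the bent and mature libraries overlapped too.

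For this cyclin the change from zygote to octant was 0.72 ± 0.35 on the log2 scale (adjusted p = 0.138), or 1.23 ± 0.30 without the single Col-0 × Tsu-1 zygote library, where it was called (adjusted p = 0.00709). It fell from heart to torpedo by -0.89 ± 0.21 (adjusted p = 0.0188), but when either Col-0 × Tsu-1 heart library, the second Col-0 × Tsu-1 torpedo library or either Tsu-1 × Col-0 torpedo library was left out, the adjusted p lay between 0.0509 and 0.0689. It was 0.0667 with no filter on low counts and 0.0519 in a fit of all libraries. The fall from torpedo to bent was -1.54 ± 0.34 (adjusted p = 0.00284), the smallest in size of the 10. From bent to mature its log2 fold change was -0.57 ± 0.50 (adjusted p = 0.355), and it was the only member not called in that comparison. Its share of the summed CPM of the set was 8.11 ± 0.444% at heart, 4.88 ± 0.779% at torpedo and 60.6 ± 12.5% at mature (SD, n = 4 each). At mature it had 15.5 to 30.5 reads per library, and no other member had more than 11.

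CYCB1;1 was also the one member called maternal in both crosses at any stage. The authors' deposited table gave a maternal share at zygote of 89.5% with a Col-0 mother (902 reads, adjusted p = 0.0216) and 97.2% with a Tsu-1 mother (158 reads, adjusted p = 2.84e-06). At octant the authors' deposited table gave 86.0% (384 reads, adjusted p = 0.00477) and 69.7% (355 reads, adjusted p = 0.24), and at globular 54.2% and 53.5%, with no call. The early maternal shares stand beside the seed coat marker levels given above, whose part in them was not tested. In total reads the zygote level was lower with a Tsu-1 mother by -1.58 ± 0.49 on the log2 scale (adjusted p = 0.0125).

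CYCB1;2 followed the mean of the set most closely. Across the 15 group means of log2 CPM, its Pearson r with the mean of the other members was 0.990, against 0.881 for CYCB1;1, the lowest. These groups share libraries and depth, so both values are descriptions. Its CPM were 36.4, 7.82 and 16.3 in zygotes, 78.9, 63.0, 57.9 and 67.8 at octant and 144, 86.9, 105 and 103 at torpedo, with no overlap of zygote and octant. It rose from zygote to octant by 1.75 ± 0.44 on the log2 scale (adjusted p = 0.0199), a call lost without zygote Tsu-1 × Col-0 replicate 2 (adjusted p = 0.0528) or octant Tsu-1 × Col-0 replicate 1 (0.059) or 2 (0.0615). It fell by -3.31 ± 0.40 from torpedo to bent (adjusted p = 3.05e-05) and by -4.29 ± 0.71 from bent to mature (adjusted p = 0.000628).

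CYCB1;3, another B1 cyclin, had its highest stage mean at heart. Its CPM were 11.2, 25.6 and 24.99 in zygotes, 35.6, 45.5, 36.9 and 39.1 at octant, 84.9, 95.3, 49.0 and 37.1 at heart and 31.9, 23.4, 26.7 and 21.6 at torpedo, so that every torpedo library was below every heart library. It fell from heart to torpedo by -1.38 ± 0.26 on the log2 scale (adjusted p = 0.00709), a call kept under every alternative tried. At heart the Col-0 × Tsu-1 libraries were higher than the Tsu-1 × Col-0 libraries, a difference of -1.06 ± 0.42 with a Tsu-1 mother that did not pass the test (adjusted p = 0.119). The rise from zygote to octant was 1.05 ± 0.34 (adjusted p = 0.0471) and was lost without any 1 of the 7 libraries in turn (adjusted p 0.0569 to 0.0998), with RLE scaling (0.0531) and with no filter on low counts (0.052). Without the single Col-0 × Tsu-1 zygote library its log2 fold change was 0.57 ± 0.25.

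CYCB1;4 is the B1 cyclin without an MSA core in its window. Its CPM were 14.2, 1.67 and 3.79 in zygotes, 33.6, 35.7, 30.8 and 29.5 at octant and 66.1, 60.3, 89.9 and 94.9 at torpedo, and none of these stages overlapped. The rise from zygote to octant was 2.48 ± 0.56 on the log2 scale (adjusted p = 0.0146), lost without zygote Tsu-1 × Col-0 replicate 2 (adjusted p = 0.0549). At bent its CPM were 8.82, 7.58, 11.4 and 9.93, a fall of -2.93 ± 0.24 from torpedo (adjusted p = 1.52e-06). In the authors' deposited table its maternal share was 48.7% (47 reads) and 48.1% (44 reads) at octant, and at globular 57.9% with a Col-0 mother (75 reads, adjusted p = 0.888) and 86.9% with a Tsu-1 mother (122 reads, adjusted p = 0.0164).

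The B2 cyclins, close relatives of the B1 class that also act in G2 and M phase, were the lowest members per kilobase at octant and torpedo. CYCB2;2 had 2.79, 2.05 and 2.04 CPM in zygotes and 10.3, 9.34, 9.92 and 15.4 CPM at octant, without overlap. Its rise of 2.26 ± 0.35 on the log2 scale (adjusted p = 0.005) was kept under every alternative, and the gene was also higher at octant than in ovules, by 1.15 ± 0.30 (adjusted p = 0.0144). Without ovule replicate 1 or 2 the latter had an adjusted p of 0.054 or 0.0566. Its further rise from globular to heart, 0.83 ± 0.26, was at the threshold (adjusted p = 0.04996). That call was lost with another scaling, with no filter on low counts and without 7 of the 8 libraries, all but heart Tsu-1 × Col-0 replicate 2 (adjusted p 0.0768 to 0.138).

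CYCB2;1 had 2.32, 1.84 and 0.972 CPM in zygotes, 4.26, 3.95, 2.82 and 3.54 at octant and 10.7, 9.49, 10.7 and 11.99 at torpedo. These stages did not overlap, but the step from zygote to octant, 1.00 ± 0.38 on the log2 scale, did not pass the test (adjusted p = 0.0744). It passed in a fit of all libraries (adjusted p = 0.0154) and without the Col-0 × Tsu-1 zygote library (adjusted p = 0.0304). It fell by -2.36 ± 0.41 from torpedo to bent (adjusted p = 0.000519).

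B-type kinases are the plant-specific partners of these cyclins, the CDKB1 class being present from S phase on and the CDKB2 class restricted to G2 and M phase. Each of the 3 kinase genes overlaps a gene on the opposite strand in the annotation, and the library kit does not mark strand, so reads of the pair may not be separable. CDKB1;1 was the one member called lower at octant than in ovules. It had 50.8 and 33.4 CPM in ovules, 6.76, 17.5 and 13.6 in zygotes and 12.8, 14.2, 17.7 and 17.4 at octant, where every library lay below both ovule libraries. The log2 fold change from ovule to octant was -1.50 ± 0.24 (adjusted p = 0.00145), kept under every alternative, and seed coat marker sums were higher at octant than in ovules.

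That kinase then rose from octant to globular by 0.88 ± 0.22 on the log2 scale (adjusted p = 0.00991), lost without octant Col-0 × Tsu-1 replicate 1 (adjusted p = 0.051). At globular its CPM were 29.03, 29.5, 20.8 and 33.2, all above octant. At heart they were 58.7 and 61.1 in Col-0 × Tsu-1 and 22.5 and 28.5 in Tsu-1 × Col-0. The crosses did not overlap there, and the difference of -1.23 ± 0.42 had an adjusted p of 0.0682, or 0.0284 with DESeq2 and 0.0296 without the filter on low counts. In the authors' deposited table its maternal share at zygote was 62.8% (81 reads) and 64.2% (155.5 reads), and neither was called.

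CDKB2;1 had 2.58, 2.68 and 6.22 CPM in zygotes and 17.03, 19.9, 20.6 and 18.9 CPM at octant, again without overlap. The rise of 2.40 ± 0.41 on the log2 scale (adjusted p = 0.00644) was kept under every alternative. At torpedo the crosses separated, with 58.4 and 42.7 CPM in Col-0 × Tsu-1 and 15.7 and 17.4 CPM in Tsu-1 × Col-0. The level with a Tsu-1 mother was lower by -1.61 ± 0.39 (adjusted p = 0.00725), a call lost without torpedo Col-0 × Tsu-1 replicate 1 (adjusted p = 0.0681) or when replicate 1 (0.0943) or 2 (0.0525) of the other torpedo group was left out. At bent the difference was -1.16 ± 0.50 (adjusted p = 0.113). The maternal shares at torpedo in the authors' deposited table were 54.7% and 44.7%, with no call, and at zygote 70.6% (106 reads, adjusted p = 0.125) and 83.6% (66 reads, adjusted p = 0.00049).

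CDKB2;2 showed less separation. Its CPM were 6.65, 13.6 and 14.6 in zygotes, 27.8, 26.3, 28.9 and 25.1 at octant and 47.7, 41.4, 28.4 and 17.5 at torpedo. It rose from zygote to octant by 1.34 ± 0.32 on the log2 scale (adjusted p = 0.0177), lost without octant Tsu-1 × Col-0 replicate 1 (adjusted p = 0.0599). The torpedo difference between crosses was -0.96 ± 0.42 with a Tsu-1 mother (adjusted p = 0.127). In the authors' deposited table its maternal share at zygote was 65.8% (205 reads, adjusted p = 0.276) and 71.8% (266 reads, adjusted p = 0.0194), and at octant 57.0% and 46.9%, with no call.

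Unfertilized Col-0 ovules were compared with hand-isolated zygotes and octants of both crosses. Tissue, maternal accession and stage cannot be told apart in these comparisons. From ovule to zygote 0 of the 10 members were called by edgeR, where 8.8% of all genes were called, although the median over the members was -1.32 on the log2 scale against 0.10 over all genes. At an unadjusted p under 0.05 the count was 3, where 6864 of 23292 genes passed, and DESeq2 called 2. Without the single Col-0 × Tsu-1 zygote library 6 were called, all lower in zygotes. Every zygote left in that fit had Tsu-1 as its mother, whereas the ovules were Col-0. The accession of the mother therefore changed together with the step, and its part was not tested. The 8.8% above belongs to the fit with every library and is no background for these 6 calls. From ovule to octant 1 member was higher and 1 lower, with 47.6% of genes called, and without ovule replicate 2 the count was 1. Without ovule replicate 1 the members called were CDKB1;1, lower, and CYCB1;3, higher (1.34 ± 0.26, adjusted p = 0.011), the latter at 0.25 ± 0.39 with both ovule libraries. Seed coat marker sums were higher in zygotes than in ovules, as given above, and their part in these comparisons was not tested.

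Reciprocal crosses differ in which accession is the mother. At zygote 3 members, all B1 cyclins, were called lower with a Tsu-1 mother and 0 higher by edgeR, where 39.8% of all genes were called and 22.6% were lower. For CYCB1;2 the difference was -1.60 ± 0.55 on the log2 scale (adjusted p = 0.0216) and for CYCB1;4 it was -2.42 ± 0.56 (adjusted p = 0.00138). Without zygote Tsu-1 × Col-0 replicate 1 the count was 1, since CYCB1;1 and CYCB1;2 were no longer called (adjusted p = 0.102 and 0.169). The remaining B1 cyclin, CYCB1;3, had a log2 difference of 1.18 ± 0.54 in the other direction (adjusted p = 0.0849), CDKB1;1 of 1.20 ± 0.53 (adjusted p = 0.0744) and CDKB2;2 of 1.08 ± 0.53 (adjusted p = 0.109). DESeq2 called these 3 members higher with a Tsu-1 mother (adjusted p = 0.0468, 0.0149 and 0.0415), beside the 3 lower ones, and edgeR with RLE scaling called the first of these kinases higher (adjusted p = 0.0384). Col-0 × Tsu-1 zygotes are 1 library, so the cross and that library cannot be told apart.

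Between crosses 0 members differed at octant, at globular and at heart, where 3.48%, 0.75% and 7.53% of genes were called. At an unadjusted p under 0.05 the counts were 0, 0 and 2, where 3579, 3340 and 6005 of 25062 genes passed. DESeq2 called 1 at heart. At torpedo 1 member was called, lower with a Tsu-1 mother, against 13.6% of genes called and 7.62% lower. In the bent libraries the 10 most abundant genes held 39.8% and 48.9% of reads in Col-0 × Tsu-1 and 9.50% and 11.6% in Tsu-1 × Col-0. The part of this imbalance in the cross results was not tested. At bent 1 was called, the B2 cyclin CYCB2;1, as higher, against 15.8% of genes called and 5.78% higher. Its CPM there were 1.55, 0.701, 2.89 and 6.21, the highest of them from 5 reads. Its difference of 1.53 ± 0.50 (adjusted p = 0.0385) stands beside a median of -0.34 over all genes, which shifted by 0.14 with the other scaling. That call was lost with no filter on low counts (adjusted p = 0.0674), in a fit of that stage alone (0.12), without bent Col-0 × Tsu-1 replicate 2 (0.163) and without bent Tsu-1 × Col-0 replicate 1 (0.099) or 2 (0.115), and the count at bent was 2 without bent Col-0 × Tsu-1 replicate 1.

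At mature 2 members were called lower with a Tsu-1 mother, against 15% of genes called and 8.67% lower, on very few reads. The 10 most abundant genes held 61.5% and 59.5% of reads in mature Col-0 × Tsu-1 and 24.5% and 25.5% in mature Tsu-1 × Col-0, and the part of this was not tested. CYCB1;4 had 1 and 11 reads in Col-0 × Tsu-1 and 0 in both other libraries. With reads pooled over each group and a floor of 3 counts (0.265 CPM), it was 3.89-fold lower. That ratio carries no spread between libraries, and Col-0 × Tsu-1 replicate 1 (0.127 CPM) was itself below the floor. CYCB2;2 had 1 and 5 reads against 0, 1.95-fold lower by the same pooled floor, with the same replicate also at 0.127 CPM. Neither was called without mature Col-0 × Tsu-1 replicate 2 (adjusted p = 0.404 for each), or without either Tsu-1 × Col-0 library (adjusted p 0.084 to 0.208), and DESeq2 did not call CYCB2;2 (adjusted p = 0.0606).

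The change from zygote to octant differed between crosses for 2 of the 10 members, where 35.9% of genes were called. The rise of CYCB1;4 was larger with a Tsu-1 mother, by 2.26 ± 0.55 on the log2 scale (adjusted p = 0.0124), and that of CYCB1;3 was smaller, by -1.25 ± 0.41 (adjusted p = 0.0386). Both rest on the single Col-0 × Tsu-1 zygote library. With no filter on low counts 3 were called, all with a larger rise with a Tsu-1 mother, and CYCB1;3 was not among them (adjusted p = 0.0626). The count was 6 without either Tsu-1 × Col-0 zygote library, 0 without either Col-0 × Tsu-1 octant library or Tsu-1 × Col-0 octant replicate 1, and 1 without Tsu-1 × Col-0 octant replicate 2. For the other steps 0 members were called, where 1.88%, 0.146%, 9.22%, 0.0359% and 3.52% of genes were called in the order of development. At an unadjusted p under 0.05 those counts were 0, 1, 3, 2 and 2. Over all genes, in the same order, 3305 of 20381, 2689 of 19811, 5980 of 19479, 2768 of 19519 and 3994 of 18787 passed.

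Maternal and paternal alleles were compared through the authors' deposited table, which pools the libraries of a group and therefore has no spread between replicates. A call needed an adjusted p under 0.05 and at least 10 variant reads in each cross, with the same parent higher. Of the 5 members with enough reads at zygote 1 was maternal in both crosses, where 41.1% of 7547 genes were, and at octant it was 0 of 6, where 26.9% of 8916 genes were. From globular on 0 members were called in both crosses, where 1.9% of genes were called at globular, 0.219% at heart and 0.169% at torpedo. At bent 0.0512% and at mature 0% of genes were called. The median maternal share over members with enough reads was 64.3% at zygote with a Col-0 mother, against 80.9% over all genes in the authors' deposited table, and 71.8% against 88.5% with a Tsu-1 mother. At octant it was 52.8% against 78.6% and 54.3% against 69.6% in the authors' deposited table. These medians describe 5 or 6 genes and were not tested. Taken in a single cross, 1 of 6 members was called maternal at zygote with a Col-0 mother and 3 of 5 with a Tsu-1 mother, where 49.8% and 74% of genes were in the authors' deposited table. The same counts were 1 of 6 and 0 of 6 at octant, where 57.5% and 34% of genes were called in the authors' deposited table, and 0 of 7 and 1 of 6 at globular, where 7.89% and 4.21% were.

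From heart to bent the authors' deposited table held 38 member values with at least 10 reads, between 37.9% and 70.1% with a median of 53.9%, and 0 of them were called, the lowest adjusted p being 0.529, where 2.73% of the values of all genes were. At mature only CYCB1;1 had enough variant reads, with 78.5% (32 reads) and 52.7% (48 reads) in the authors' deposited table. The fractions are drawn towards 50%, as a gene with 0 variant reads is listed at 50% and a gene with 1 read at zygote at no more than 78.6%, so no binomial interval was computed from them.

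**Figure D4:**
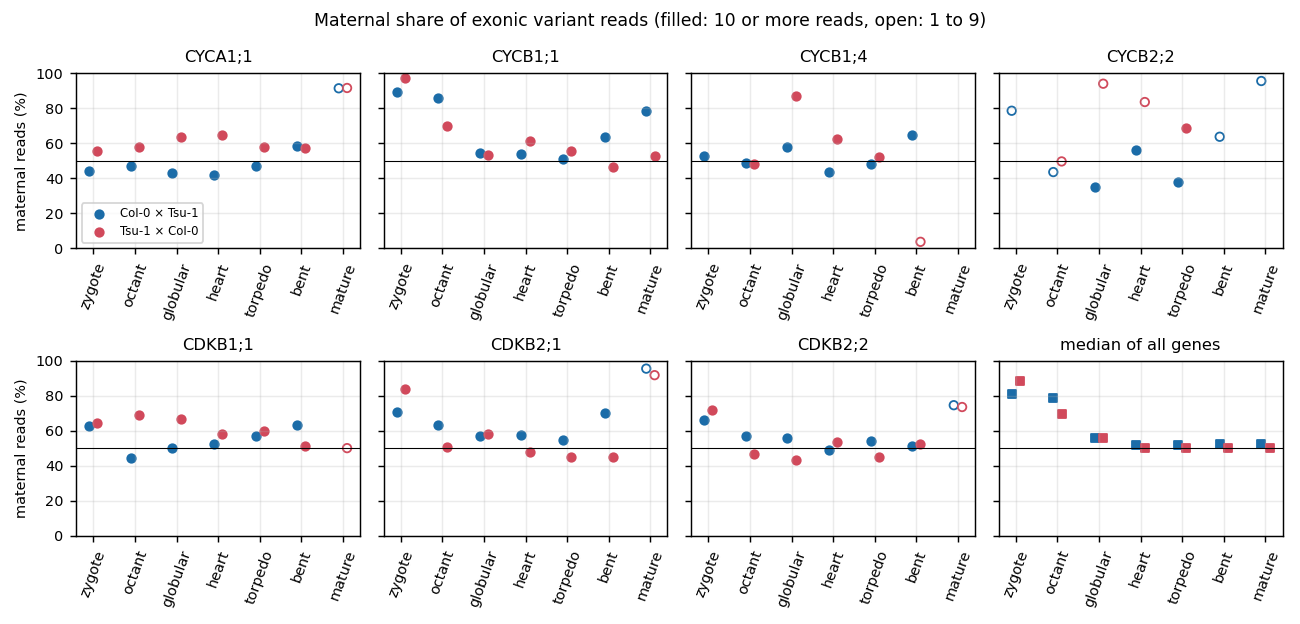
Maternal share of exonic variant reads (y axis, percent) by stage (x axis) for the 7 members with values and, in the last panel, the median of all genes, from the authors' deposited table. Blue is Col-0 × Tsu-1, red Tsu-1 × Col-0, open circles have 1 to 9 reads and values of 0 reads are left out; the panel of CYCB1;1 starts at 89.5% and 97.2%, while all other members with 10 or more reads are at or below 83.6% at zygote.

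Beside the set, 61 other cell cycle genes were read from the same fits, made up of 21 further cyclins, 9 further kinases and CKS subunits, 14 CDK inhibitors, 7 regulators of the anaphase-promoting complex and 10 MYB3R and E2F factors. From zygote to octant 25 of 58 tested rose and 2 fell, where 16.4% of all genes were called higher and 17.9% lower. From torpedo to bent 6 of 57 rose and 31 fell, where 22% of all genes were higher and 22.4% lower. From bent to mature 12 of 53 rose and 23 fell, where 25.3% of all genes were higher and 29.2% lower. The median log2 fold change from torpedo to bent was -1.21 over these genes and -3.05 over the members. Within them the further cyclins gave 0 rises and 14 falls of 20 from torpedo to bent, while the CDK inhibitors gave 5 rises and 2 falls of 11.

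The genes most like the set were sought among 13516 genes by Pearson correlation with the mean profile of the members over the 15 group means of log2 CPM, a description that carries no test. AT5G56120 came first (r = 0.989), followed by AT1G10780 and AT5G55520 (both 0.983), AT4G02800 (0.982), CDKB1;2 (AT2G38620) (0.981) and CDT1A (0.980). AT4G33270, a CDC20-type activator of the anaphase-promoting complex, and AT4G39150 (both 0.978), AT5G25580 (0.976) and PCNA1 (0.976) closed the list of 10.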

How the data were processed

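Polyadenylated RNA of hand-isolated embryos was amplified (MessageAmp aRNA) and sequenced from TruSeq RNA libraries, per the labels' protocols. The submitters' processing notes name STAR 2.7.0d, featureCounts 1.6.0, edgeR and TAIR10, with no roles. The authors deposited total reads as estimated counts per gene, of which 8.68 to 22.4% per library were not whole, and they were rounded here. For parental contributions the authors deposited, per the file headers, pooled maternal fractions, adjusted p-values and estimated variant read counts, so a planned test of allele counts per library was replaced by these. The 42 intronic columns were not used.

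All tests on counts used edgeR 4.0.16 under R 4.3.3 (two-sided quasi-likelihood F tests after filterByExpr and TMM scaling), stages on their own libraries, reciprocal crosses in a model of all 29 libraries, and DESeq2 1.42.0 was an alternative. The SE given with an edgeR log2 fold change is its absolute value divided by the square root of the F statistic. Scripts were tested on simulated data. Tables and figures used Python 3.11.15, pandas 2.3.3, numpy 2.4.6, scipy 1.17.1 and matplotlib 3.10.9. All 10 members are named, with up to 3 genes per direction from other cell cycle lists and the 10 most similar genes whose mean log2 CPM reached 2. The members and lists were chosen with earlier results of these data known. Groups follow the labels. Alternatives were other scaling, no filter, other sets of libraries, a replicate block, and other read minimums and thresholds for parental calls. Gene models and windows are RefSeq TAIR10.1.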

Additional observations from a re-analysis of the deposited data

Results flagged for a closer look

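Of the comparisons between crosses, 2 members stood out because the difference in their change between the 2 cross directions passed a test of that difference itself, the interaction term of the edgeR model. From zygote to octant the log2 change of CYCB1;4 was 2.26 ± 0.55 (SE) larger with a Tsu-1 mother (adjusted p = 0.0124), with zygote levels of 14.2 CPM in Col-0 × Tsu-1 and 1.67 and 3.79 CPM in Tsu-1 × Col-0. For CYCB1;3 the difference was -1.25 ± 0.41 (adjusted p = 0.0386), with 11.2 CPM against 25.6 and 24.99 CPM. Both contrasts contain the single Col-0 × Tsu-1 zygote library, so that library and the cross cannot be told apart. Both calls were lost without either Col-0 × Tsu-1 octant library or Tsu-1 × Col-0 octant replicate 1.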

How the results depend on the processing

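No called value of a member changed sign. Member fold changes were recomputed under another scaling, filter or tool, in a fit of all libraries or of 1 stage, or with a replicate block. Of these, 869 kept their side of the threshold, 16 lost the call and 16 gained it. With each library left out in turn, 1218 kept their side, 59 lost the call and 23 gained it. Most values were not called in the main fits, and only a called value can lose its call. The values that kept their side therefore do not show how often calls held. Replicate numbers were not treated as pairs in the main fits. Deviations of same-numbered libraries from their group means correlated at -0.27 to 0.42 (median -0.02) over 31 pairs of groups. In 5 of these the correlation was over 0.1, and it was highest between torpedo and bent in Col-0 × Tsu-1. The replicate block left 5 calls from zygote to octant (CYCA1;1 and CYCB1;3 lost), 0 from globular to heart, 8 from bent to mature (CYCB2;2 lost) and 1 in the comparison of the zygote to octant change between crosses. For the parental values no paired analysis was possible because they are pooled.

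Counts of members called changed as follows. Another scaling (RLE) gave 6 from zygote to octant, 0 from globular to heart and 4 between crosses at zygote. No filter on low counts gave 5 from zygote to octant, 0 from globular to heart, 1 from heart to torpedo, 1 from ovule to zygote, 1 between crosses at heart, 0 at bent, and for differences in change 3 from zygote to octant and 1 from bent to mature. DESeq2 gave 3 from octant to globular, 2 from ovule to zygote, and between crosses 6 at zygote (3 higher and 3 lower), 1 at heart and 1 at mature. A fit of all libraries gave 1 from heart to torpedo and 8 from zygote to octant, and fits of a stage alone gave 1, 0 and 0 at octant, bent and mature. In the fit of mature libraries alone CYCB1;4 and CYCB2;2 were not tested, so its count of 0 says nothing about their calls. An adjusted p under 0.01 left 0 maternal calls at zygote.

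Leaving out each library gave counts of 3 to 8 from zygote to octant, 0 to 3 from octant to globular, 0 to 1 from globular to heart, 1 to 2 from heart to torpedo, 10 to 10 from torpedo to bent, 7 to 9 from bent to mature, 0 to 6 from ovule to zygote and 1 to 2 from ovule to octant. Between crosses they were 1 to 3 at zygote, 0 to 1 at torpedo, 0 to 2 at bent and at mature, and for differences in change 0 to 6 from zygote to octant and 0 to 2 from bent to mature. The Col-0 × Tsu-1 zygote library could not be left out of its cross comparisons. The cause of these shifts was not tested. The stage of the highest mean was octant in place of torpedo for CDKB2;2 and globular in place of heart for CYCB1;1 with RLE scaling, and torpedo in place of heart for CDKB2;1 without scaling, settings chosen after seeing the data. Depth was lowest in bent and globular Tsu-1 × Col-0 replicate 2 (689780 and 1486158 reads), whereas the mature libraries, where most members had few reads, held 7963446 to 26771336 reads.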

Other observations

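Cell cycle genes outside the set included some that moved the other way at the end of development. The CDK inhibitors gave 5 rises and 0 falls of 10 tested from bent to mature, where 25.3% of all genes were called higher. The MYB3R and E2F factors gave 5 rises and 1 fall of 10 tested in that step. SMR5, of the SIAMESE-RELATED inhibitors, was at 0.0679 ± 0.0554 CPM at torpedo, 5.92 ± 3.15 at bent and 312 ± 236 at mature (SD, n = 4 each). It rose in both steps, with log2 fold changes of 6.27 ± 0.66 (adjusted p = 1.16e-05, edgeR) and 5.32 ± 0.72 (adjusted p = 0.000209). From torpedo to bent SMR3 rose from 0.157 ± 0.0675 to 8.38 ± 8.67 CPM, and KRP2 from 1.74 ± 1.04 to 17.5 ± 12.2 CPM. In the same step KRP3, another inhibitor, fell from 22.2 ± 11.96 to 0.880 ± 0.537 CPM (log2 fold change -5.10 ± 0.42, adjusted p = 1.62e-06). UVI4, an inhibitor of the anaphase-promoting complex, fell from 17.6 ± 3.09 to 1.64 ± 1.45 CPM, and SMR4 from 1.33 ± 1.38 to 0.0799 ± 0.0587 CPM. From bent to mature SMR2 rose from 1.12 ± 1.08 to 4.76 ± 2.696 CPM and CYCB3;1, a B-type cyclin outside the set, from 0.252 ± 0.343 to 2.90 ± 1.06 CPM. OSD1, CYCA2;3 and CKS2 fell in that step, with log2 fold changes of -4.14, -3.56 and -3.53.

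Earlier steps held other classes of cyclin. From zygote to octant the kinase CDKD;2 rose from 3.11 ± 3.02 (SD, n = 3) to 66.5 ± 36.3 CPM (n = 4), and CYCB3;1 and CYCA2;2 rose by 3.68 ± 0.55 and 3.53 ± 0.51 on the log2 scale. KRP2 and KRP6 fell, by -1.58 ± 0.41 (adjusted p = 0.023) and -1.29 ± 0.35 (adjusted p = 0.0266), calls lost without Tsu-1 × Col-0 zygote replicate 1 or any of 3 octant libraries (both replicates of Col-0 × Tsu-1 and replicate 1 of Tsu-1 × Col-0). From octant to globular KRP3, CYCA2;4 and CYCD3;1 rose by 1.96, 1.87 and 1.82, and CCS52A1, CYCD1;1 and KRP6 fell by -2.26, -2.18 and -2.04. From globular to heart CYCD1;1 and CYCD3;2 rose by 1.39 ± 0.38 and 1.20 ± 0.33, and SMR1 and CCS52A1 fell by -3.16 ± 0.75 and -1.45 ± 0.43, and each of these calls was lost without at least 2 of the libraries left out in turn. From heart to torpedo CCS52A1, an activator of the anaphase-promoting complex, CYCD1;1 and CYCD4;2 rose by 2.11, 1.79 and 1.70. CYCA3;4, CYCA3;1 and KRP5 fell by -1.80, -1.29 and -1.18 in that step.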
